A study of Mus musculus with 8 samples.

Results

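The 9 imprinted genes Grb10, Dlk1, Peg3, Peg10, Mest, Meg3, Ndn, Plagl1 and H19 were examined in FoxO3 null and wild type mouse neural stem cell cultures, through every probe set that the array's annotation assigns to them. They had 35 of the 45037 probe sets tested, and 8 of them are among the 18193 genes with a probe set of their own, because the only H19 probe set also carries the symbol Mir675. The genes were chosen by measured values, their FoxO3 null against wild type differences in each set and their differences between sets. Their values in those contrasts, and in the difference between sets of the genotype difference, are therefore a description. No p-value is given for them, and counts past the adjusted threshold stand only beside the share of all probe sets past it.

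The study measured total RNA of secondary neurospheres, floating colonies of neural stem and progenitor cells, on 8 single-colour arrays, and compared a FoxO3 null mutant with wild type. FoxO3 is a forkhead transcription factor that insulin and growth factor signalling keeps out of the nucleus. There were 2 arrays each of FoxO3 null set 2, wild type set 2, FoxO3 null set 1 and wild type set 1. Every culture came from FVB/N mouse forebrain, grew with the mitogens bFGF at 20 ng/ml and EGF at 20 ng/ml, and was collected at day 6 after plating at 50000 cells/ml. The labels name the mutant without describing the allele or the age of the mice. They also do not say what a set is or whether both arrays within a group stem from different animals or cultures, so any p-value below measures the spread between arrays, which may be technical. Differences are log2 FoxO3 null minus wild type, or log2 set 2 minus set 1, with the standard error of the fit.

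Arrays of one set resembled each other more (lowest correlation over all probe sets 0.996) than arrays of different sets (highest 0.991). The brightest Foxo3 probe set read 9.05 and 9.14 in FoxO3 null set 2, 10.32 and 10.00 in wild type set 2, 9.08 and 8.86 in FoxO3 null set 1, and 10.24 and 10.26 in wild type set 1, so the genotypes separated in both sets. Of 9 listed neural stem and progenitor markers, 8 were measured and all 8 lay above the median level of all probe sets (6.28). Between sets the cultures differed widely: 38.4% of all probe sets passed an adjusted p of 0.05 in limma for set 2 against set 1. The difference between the 3′ and 5′ actin control probe sets, a sign of RNA or labelling quality, moved with set. It was 0.33 to 0.39 on set 2 arrays and 0.47 to 0.54 on set 1 arrays. The same difference for Gapdh overlapped between sets, at -0.11 to -0.07 in set 2 and -0.10 to -0.07 in set 1. The part of RNA or labelling quality in any set difference was not tested.

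Imprinted genes are transcribed mainly from a single parental copy, because DNA methylation laid down at CpG dinucleotides in the germ line silences or insulates the other copy. Many act on growth: as a rule the paternally expressed ones promote it and the maternally expressed ones restrain it. Among the 9 genes, Mest, Peg3, Peg10, Plagl1, Ndn and Dlk1 are expressed from the paternal copy, H19 and Meg3 are noncoding RNAs from the maternal copy, and Grb10 is maternal in most tissues but paternal in neurons. Several are also known from neural stem cells and brain, where Dlk1 acts in the stem cell niche and necdin, the product of Ndn, restrains the cell cycle. The arrays read both parental copies together and cannot tell them apart.

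Promoter sequence is shown for the genes on which the results below turn, as the windows RefSeq gives on GRCm38.p6, from 250 bases before to 50 bases after a transcript start. A window was found for 7 of the 9 genes, 11 windows in all. Both Grb10 windows are shown because it starts at more than one promoter, and CpG dinucleotides, the bases at which DNA can be methylated, are in capitals. Whether any window lies in a region that carries an imprint was not examined. Grb10's upstream window at chr11:12037371-12037670, minus strand, holds 45 CpGs, more than 98.1% of the 32851 windows of this length, while its downstream window at chr11:12027922-12028221, minus strand, holds 9, near the median of 7.
Grb10 upstream start: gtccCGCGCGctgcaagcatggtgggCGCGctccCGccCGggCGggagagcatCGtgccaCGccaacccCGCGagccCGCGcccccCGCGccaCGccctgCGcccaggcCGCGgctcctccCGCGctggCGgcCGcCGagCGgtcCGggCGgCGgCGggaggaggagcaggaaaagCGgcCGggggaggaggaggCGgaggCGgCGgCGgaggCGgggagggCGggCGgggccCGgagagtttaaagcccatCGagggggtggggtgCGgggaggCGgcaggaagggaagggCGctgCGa
Grb10 downstream start: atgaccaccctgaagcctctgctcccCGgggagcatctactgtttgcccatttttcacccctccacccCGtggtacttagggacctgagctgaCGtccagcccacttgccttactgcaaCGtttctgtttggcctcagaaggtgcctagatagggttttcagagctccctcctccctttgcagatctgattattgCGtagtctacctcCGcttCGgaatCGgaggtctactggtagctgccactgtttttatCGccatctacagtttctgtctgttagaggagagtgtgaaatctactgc
A window for each of 3 paternally expressed genes follows, with 26 CpGs for Plagl1 at chr10:13090582-13090881, plus strand, 17 for Mest at chr6:30737800-30738099, plus strand, and 13 for Peg3 at chr7:6730370-6730669, minus strand. The other Mest windows, with 8 and 17 CpGs, are not shown.
Plagl1: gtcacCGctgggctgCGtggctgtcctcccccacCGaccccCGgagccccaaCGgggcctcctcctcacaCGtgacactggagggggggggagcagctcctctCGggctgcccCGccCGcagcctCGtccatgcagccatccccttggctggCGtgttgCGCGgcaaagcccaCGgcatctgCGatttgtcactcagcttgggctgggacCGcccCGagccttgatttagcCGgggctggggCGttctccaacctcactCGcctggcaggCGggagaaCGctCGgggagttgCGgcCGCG
Mest: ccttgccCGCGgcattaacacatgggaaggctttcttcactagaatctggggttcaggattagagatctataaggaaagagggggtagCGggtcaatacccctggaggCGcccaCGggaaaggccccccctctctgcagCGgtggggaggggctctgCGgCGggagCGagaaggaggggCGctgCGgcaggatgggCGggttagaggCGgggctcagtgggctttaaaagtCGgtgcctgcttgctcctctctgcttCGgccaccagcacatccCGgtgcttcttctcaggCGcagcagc
Peg3: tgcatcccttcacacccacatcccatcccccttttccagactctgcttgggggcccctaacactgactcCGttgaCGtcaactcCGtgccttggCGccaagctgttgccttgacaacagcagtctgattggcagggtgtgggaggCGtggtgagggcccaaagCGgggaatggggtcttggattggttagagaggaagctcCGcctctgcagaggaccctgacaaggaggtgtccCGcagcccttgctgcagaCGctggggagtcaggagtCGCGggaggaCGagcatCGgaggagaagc
The 7-letter forkhead motif TGTTTAC, searched on both strands, occurred in 3.65% of the 32851 windows. Among the 11 windows of these genes it occurred in 1, that of Dlk1 at chr12:109452573-109452872, plus strand, at positions 164 and 184, where the 7 letters are in capitals; 0.11% of windows hold 2 or more matches.
Dlk1: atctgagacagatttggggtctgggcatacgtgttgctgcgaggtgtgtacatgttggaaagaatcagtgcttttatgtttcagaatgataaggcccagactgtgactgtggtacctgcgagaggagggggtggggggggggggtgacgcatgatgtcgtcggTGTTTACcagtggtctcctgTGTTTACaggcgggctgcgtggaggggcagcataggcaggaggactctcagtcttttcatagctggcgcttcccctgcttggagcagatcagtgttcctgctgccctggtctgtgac
A match describes these letters in the window and does not show binding.

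The members differed widely in level. On the log2 scale, 16 of the 35 probe sets lay above the median level of all probe sets and 19 below it, and the 8 at or above the 90th percentile came from Mest, Peg3 and Ndn. The Mest probe set, with a mean of 12.89, stood at the 99.0th percentile. Dlk1, Peg10 and the weaker probe sets of Grb10, Meg3, Ndn, Peg3 and Plagl1 sat at 4.23 to 6.20, in the lower part of the scale, where a probe set may be reading little more than background. Levels of different probe sets depend on their probes and are not compared further.

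For genotype over both sets, none of the 35 probe sets passed an adjusted p of 0.05 in limma, where 0.802% of all probe sets did. At an unadjusted p under 0.05 there were 8 of 35, against 12.7% of all probe sets. The median genotype difference was 0.0083 over the 35 and 0.0098 over all probe sets, and 21 of 35 had the same sign in both sets, where 55.6% of all probe sets did. Within set 2, 1 of 35 passed (Grb10), against 0.910% of all probe sets (0.495% lower, as Grb10 was), and within set 1 none did, against 0.284%, with 3 of 35 at an unadjusted p under 0.05, against 8.74% of all probe sets. For set, 12 of 35 passed, 7 higher and 5 lower in set 2, against 38.4% of all probe sets, 19.5% higher and 18.9% lower. Since these contrasts chose the genes, nothing is read from these counts. Within a set, 2 arrays stood against 2, and the share of all probe sets that separated there is not given. A lack of overlap within a set, stated below for single probe sets, is therefore also only a description.

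**Figure D1:**
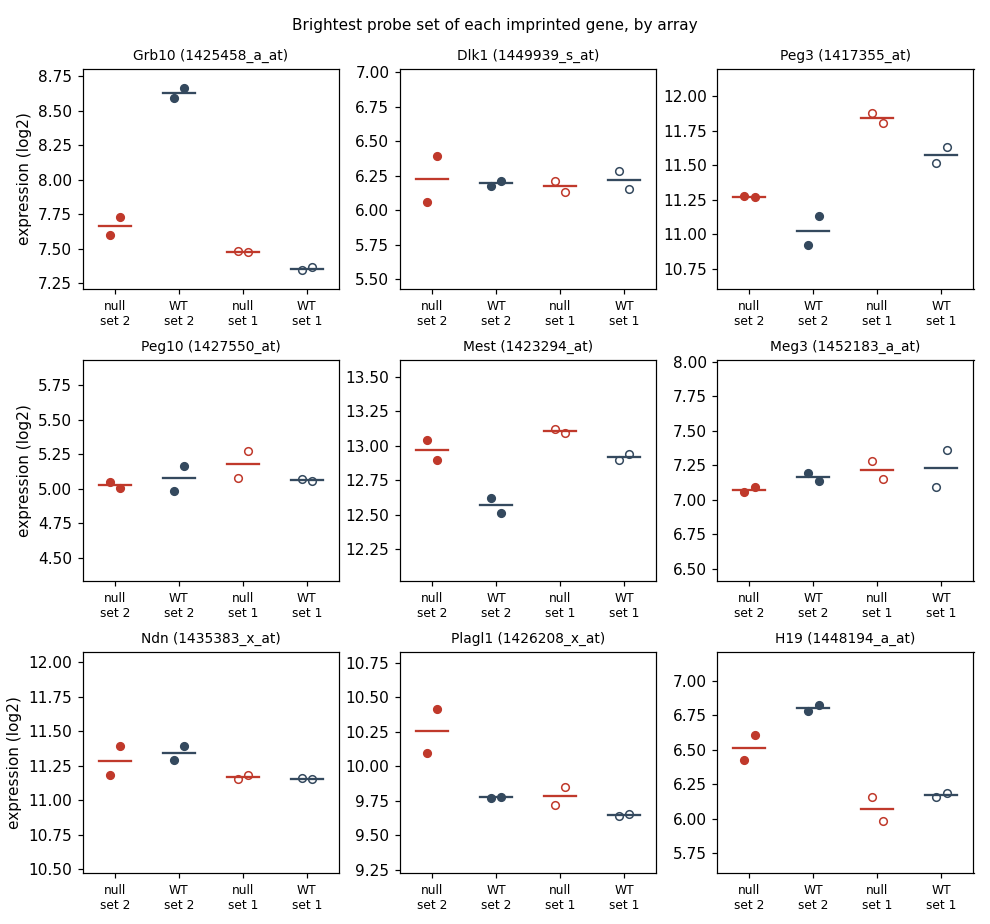
Log2 signal of the brightest probe set of each of the 9 genes on each of the 8 arrays, with FoxO3 null left of wild type and set 2 left of set 1; points are arrays and lines are means of 2 arrays. Grb10 stands apart only in wild type set 2, at 8.60 and 8.67, while Mest, Peg3 and Plagl1 read higher on average in FoxO3 null in both sets.

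Grb10 encodes an adaptor protein that binds the activated insulin and IGF1 receptors and dampens their signal, and it lies at chr11:11930499-12037428 on GRCm38.p6. Its brightest probe set, 1425458_a_at, read 7.60 and 7.73 in FoxO3 null set 2, 8.60 and 8.67 in wild type set 2, 7.48 and 7.48 in FoxO3 null set 1, and 7.35 and 7.37 in wild type set 1. Wild type set 2 was thus the high group, and the other 6 arrays lay between 7.35 and 7.73. Within set 2 the FoxO3 null arrays were lower by a log2 difference of -0.97 ± 0.08, which put their signal at 51.1% of wild type. Within set 1 the difference was 0.12 ± 0.08, with the FoxO3 null arrays above the wild type ones and no overlap.

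The genotype difference of Grb10 in set 2 minus that in set 1 was -1.09 ± 0.11. It was the only one of the 35 past the adjusted threshold for the interaction of genotype and set, where 31 of the 45037 probe sets were (0.0688%). That contrast is the difference of the values that chose the gene, so the count is no test of it. It fell to 0 of 35 without any one of 6 arrays, those being both arrays of FoxO3 null set 1, both of wild type set 1, array 1 of FoxO3 null set 2 and array 1 of wild type set 2, and the size of the Grb10 value stayed between -1.15 and -1.03 in the 8 fits that left out 1 array each. Over both sets together the genotype difference was -0.42 ± 0.18, an average of 2 unequal values, and the genotypes overlapped. Seen the other way, wild type arrays of set 2 exceeded those of set 1 by 1.28 ± 0.08, a 2.42-fold difference, and FoxO3 null arrays of set 2 exceeded those of set 1 by 0.19 ± 0.08.

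The other probe sets of Grb10 were dim and did not set wild type set 2 apart from the other arrays. Probe set 1430164_a_at read 5.15 and 5.16 in FoxO3 null set 2, 5.06 and 5.35 in wild type set 2, 5.33 and 5.27 in FoxO3 null set 1, and 5.31 and 5.29 in wild type set 1. Probe set 1425457_a_at, which the annotation ties to the same sequence record as the bright one, read 5.33 and 4.91 in FoxO3 null set 2, 5.21 and 5.26 in wild type set 2, 5.20 and 5.38 in FoxO3 null set 1, and 5.03 and 5.13 in wild type set 1. In both, the genotypes overlapped in set 2, with differences of -0.05 ± 0.10 and -0.12 ± 0.13. In set 1 the differences were -0.0028 ± 0.0965 with overlap and 0.21 ± 0.13 without. For 1425457_a_at the genotype difference in set 2 minus that in set 1 was -0.33 ± 0.18, of the same sign as at the bright probe set but smaller. The Grb10 pattern therefore rests on 1 of its 3 probe sets. All 3 carry the suffix that Affymetrix uses for probe sets shared by transcript variants of a gene.

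**Figure D2:**
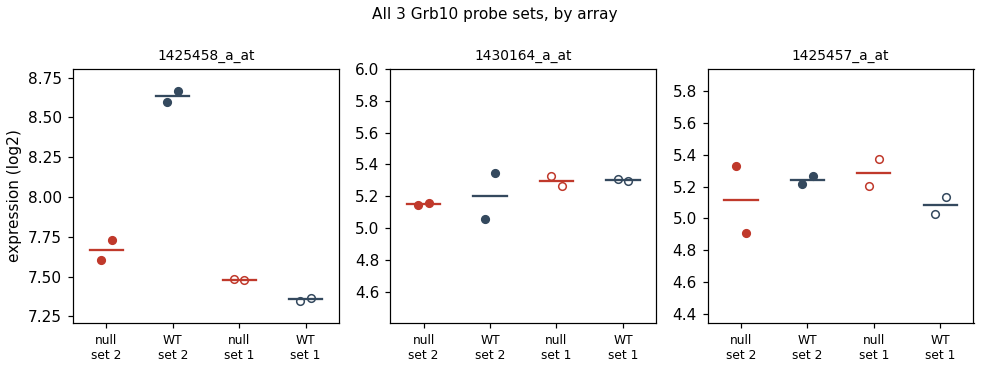
Log2 signal of the 3 Grb10 probe sets on each of the 8 arrays, FoxO3 null left of wild type within each set. The bright probe set 1425458_a_at separates wild type set 2 from the other 6 arrays, and the dim probe sets stay between 4.91 and 5.38.

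Some markers of other cells differed between the groups that Grb10 separates. Of 8 oligodendrocyte lineage markers, 7 were measured and all 7 were above the median level; their mean log2 level per array was 10.57 to 10.69 in FoxO3 null set 2, 10.79 to 10.86 in wild type set 2, 9.58 to 9.62 in FoxO3 null set 1 and 9.58 to 9.69 in wild type set 1. All 6 astrocyte markers were measured and above the median level, at 10.18 to 10.37, 10.43 to 10.62, 9.85 to 9.87 and 9.96 to 10.03 in the same order of groups. The means of both lists were highest in wild type set 2, but single markers went both ways: 4 of 7 and 4 of 6 were lower in FoxO3 null than in wild type of set 2, such as Cspg4 (-0.75 ± 0.09) and Slc1a2 (-0.90 ± 0.08), while Mog (0.17 ± 0.18) and Gfap (0.31 ± 0.17) were not. Of 7 neuron markers, all measured and 4 above the median level, the mean was 7.34 to 7.50 in FoxO3 null set 2, 7.52 in wild type set 2, 7.35 to 7.41 in FoxO3 null set 1 and 7.61 to 7.66 in wild type set 1. Gad1, an enzyme of GABA synthesis, fell over both sets (-0.91 ± 0.09, limma, adjusted p = 0.0027), and the neuron markers as single genes also went both ways in set 2, 4 lower and 3 higher. All 8 pericyte, fibroblast and meninges markers were measured, 6 of them below the median level. In set 2, 6 were higher and 2 lower in FoxO3 null, with a median difference of 0.06. Only Acta2, smooth muscle actin, passed there, at 0.83 ± 0.14 (limma, adjusted p = 0.0258), and the other 7 did not. Male cell markers (3 of 4 measured) averaged 6.88 to 7.10 in FoxO3 null set 2, 7.66 to 7.80 in wild type set 2, 7.90 to 8.09 in FoxO3 null set 1 and 8.18 to 8.35 in wild type set 1. Xist, the RNA of the inactive X chromosome, read 12.54 to 12.62, 12.22 to 12.27, 11.28 to 11.51 and 10.69 to 11.01 in the same order of groups, so the 4 groups stood in opposite orders for the Y-linked genes and for Xist. For genotype over both sets, Xist passed in limma at 0.44 and 1 of the 3 male markers passed lower, against 1.12% of all genes. Within set 2, 2 of the 3 passed lower, against 0.495% of all probe sets, and Xist did not pass. In set 2 against set 1 all 3 passed lower and Xist higher, where 41.6% of all genes passed. Mean levels of the microglia and macrophage list (5.16 to 5.46) and of the red blood cell list (4.89 to 5.24) were low in every group, where 5 of 6 and 2 of 2 measured markers lay below the median level. The part of any of these in the values of the 9 genes was not tested, and in cultured cells fewer cells of a type and less RNA per cell cannot be told apart.

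Mest, Peg3 and Plagl1 had their larger genotype differences toward FoxO3 null, in both sets, without passing the adjusted threshold. They are paternally expressed, but so are Ndn, Dlk1 and Peg10, whose genotype differences over both sets stayed near 0. Those were -0.06 to 0.08 for Ndn, -0.07 and -0.0049 for Dlk1, and 0.03 for Peg10. Mest, a hydrolase-family protein of the endoplasmic reticulum at chr6:30733506-30748466, has 1 probe set, 1423294_at. It read 13.04 and 12.90 in FoxO3 null set 2, 12.62 and 12.51 in wild type set 2, 13.12 and 13.09 in FoxO3 null set 1, and 12.90 and 12.94 in wild type set 1. FoxO3 null arrays lay above the wild type arrays of their own set, but across sets FoxO3 null set 2 and wild type set 1 overlapped. The log2 difference was 0.40 ± 0.08 in set 2, 0.19 ± 0.08 in set 1 and 0.30 ± 0.06 over both.

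Peg3, a zinc finger protein at chr7:6703892-6730462 known from maternal behaviour and growth in the mouse, has 3 bright probe sets and 2 dim ones. The brightest, 1417355_at, read 11.28 and 11.27 in FoxO3 null set 2, 10.92 and 11.13 in wild type set 2, 11.88 and 11.81 in FoxO3 null set 1, and 11.51 and 11.63 in wild type set 1. Within each set the 2 arrays of each genotype did not overlap, with differences of 0.25 ± 0.09 in set 2 and 0.27 ± 0.09 in set 1. Probe set 1417356_at read 10.20 and 10.15 in FoxO3 null set 2, 9.98 and 10.04 in wild type set 2, 10.15 and 10.07 in FoxO3 null set 1, and 9.99 and 9.95 in wild type set 1, a difference of 0.15 ± 0.05 over both sets. It was the only one of the 35 whose genotypes did not overlap over all 8 arrays, which 3.11% of all probe sets achieved. The third bright probe set, 1433924_at, gave 0.06 ± 0.08 in set 2, where the genotypes overlapped, and 0.22 ± 0.08 in set 1. The dim probe sets 1447732_x_at and 1447731_at, at means of 4.42 and 4.23, gave 0.08 ± 0.06 and -0.02 ± 0.05 over both sets.

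Plagl1, a zinc finger transcription factor that can arrest the cell cycle, lies at chr10:13090832-13131694, on the same chromosome as Foxo3 and 29.05 Mb from it. Probe set 1426208_x_at read 10.09 and 10.41 in FoxO3 null set 2, 9.77 and 9.78 in wild type set 2, 9.72 and 9.85 in FoxO3 null set 1, and 9.64 and 9.66 in wild type set 1. FoxO3 null set 2 stood above the other 6 arrays, with a difference of 0.48 ± 0.10 in set 2 against 0.14 ± 0.10 in set 1. The dimmer probe set 1450533_a_at ran the same way, at 5.65 and 5.84 in FoxO3 null set 2, 5.21 and 5.44 in wild type set 2, 5.05 and 5.15 in FoxO3 null set 1, and 4.94 and 5.09 in wild type set 1. Its difference was 0.42 ± 0.11 in set 2 and 0.08 ± 0.11 in set 1, while the remaining probe set, 1438588_at, gave 0.05 ± 0.10 and 0.07 ± 0.10 with overlapping genotypes. Affymetrix marks the brightest of the 3 with x_at, a suffix for probes that resemble other sequences. Meg3 1439380_x_at, the dim Peg3 1447732_x_at and several Ndn probe sets, the brightest among them, carry the same suffix.

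**Figure D3:**
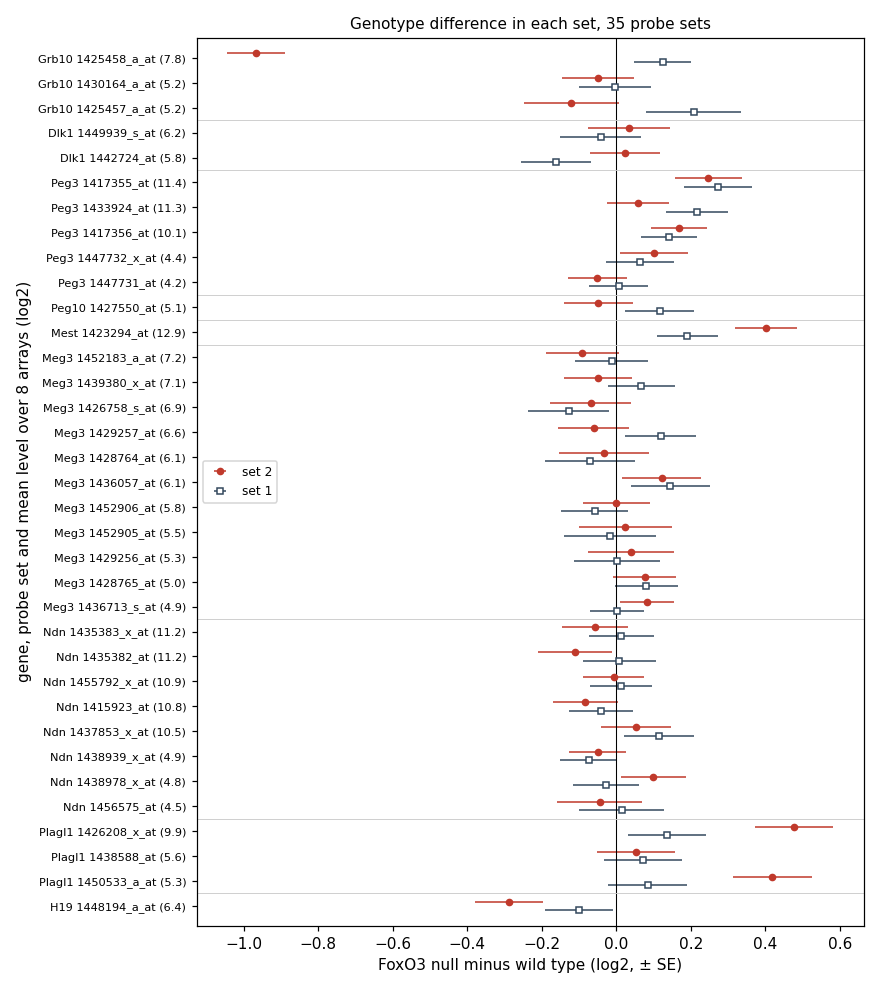
Log2 difference of FoxO3 null minus wild type in set 2 (filled circles) and set 1 (open squares) for each of the 35 probe sets, with bars of 1 SE and the mean level in brackets. Grb10 1425458_a_at in set 2 lies at -0.97, while the Mest and bright Peg3 probe sets lie right of 0 in both sets and most of Meg3 and Ndn lie near 0.

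H19, a maternally expressed noncoding RNA at chr7:142575530-142578146, is the host of miR-675, and its probe set 1448194_a_at is annotated to both. The array does not measure the mature miRNAs, which are shown, with the seed (bases 2 to 8) in capitals, to identify what the probe set's host transcript carries.
miR-675-5p: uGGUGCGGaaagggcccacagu
miR-675-3p: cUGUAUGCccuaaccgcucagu
H19 read 6.42 and 6.61 in FoxO3 null set 2, 6.78 and 6.83 in wild type set 2, 6.16 and 5.99 in FoxO3 null set 1, and 6.16 and 6.19 in wild type set 1. It was highest in wild type set 2, and the genotypes separated in set 2 by -0.29 ± 0.09 but overlapped in set 1, at -0.10 ± 0.09. The mean of this probe set, 6.39, lay just above the median level of all probe sets (6.28). Its set 1 mean of 6.12 lay below that median, where a probe set may read little more than background. Set 2 exceeded set 1 in every array, by 0.53 ± 0.07. Its growth-promoting neighbour Igf2, 72.6 kb away, did not pass for set, with a set difference of -0.19 ± 0.08 (limma, adjusted p = 0.0802), nor for genotype, at 0.11 ± 0.08 (adjusted p = 0.644). Its dimmer probe set had a set difference of the other sign, 0.16 ± 0.06 (adjusted p = 0.075).

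Meg3, the maternal noncoding RNA at chr12:109540996-109571729, had 11 probe sets with means of 4.88 to 7.17, and Dlk1, the paternal ligand-like membrane protein of the same cluster at chr12:109452485-109463336, had 2. No Meg3 probe set had a genotype difference beyond the range of -0.10 to 0.13 over both sets. Probe set 1439380_x_at had the largest set difference of the 11, reading 7.35 and 7.30 in FoxO3 null set 2, 7.25 and 7.49 in wild type set 2, 6.78 and 6.82 in FoxO3 null set 1, and 6.76 and 6.71 in wild type set 1. Set 2 lay above set 1 there without overlap, by 0.58 ± 0.06, yet the brightest Meg3 probe set, 1452183_a_at, gave -0.10 ± 0.07, and the dim 1428765_at and 1436713_s_at gave -0.19 ± 0.06 and -0.18 ± 0.05. The 11 probe sets of Meg3 therefore do not give it a single direction between sets. The Dlk1 probe sets 1449939_s_at and 1442724_at, at means of 6.20 and 5.80, gave genotype differences of -0.0049 ± 0.0756 and -0.07 ± 0.07, and both lay below the median level.

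Ndn, a single-exon gene at chr7:62348277-62349928 in the region orthologous to the human Prader-Willi locus, was bright at 5 of its 8 probe sets, with means of 10.48 to 11.24. Genotype differences over its 8 probe sets ran from -0.06 to 0.08. Probe set 1415923_at read 10.83 and 11.02 in FoxO3 null set 2, 10.997 and 11.028 in wild type set 2, 10.55 and 10.51 in FoxO3 null set 1, and 10.63 and 10.51 in wild type set 1. Set 2 exceeded set 1 there by 0.42 ± 0.06 without overlap, and at 1435382_at by 0.21 ± 0.07, while the other bright probe sets gave 0.04 to 0.15. Peg10, a retrotransposon-derived gene at chr6:4747306-4760517, had 1 probe set, 1427550_at, with a mean of 5.09 and a genotype difference of 0.03 ± 0.07.

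Between sets, the paternally expressed genes did not move together. Peg3 1417355_at was lower in set 2 by -0.56 ± 0.06, whereas the other bright Peg3 probe sets gave 0.11 ± 0.06 and 0.05 ± 0.05. Mest was lower in set 2, at -0.25 ± 0.06, more so in wild type (-0.35 ± 0.08) than in FoxO3 null (-0.14 ± 0.08). Plagl1 was higher in set 2 at 2 of its 3 probe sets, by 0.30 ± 0.09 and 0.48 ± 0.09. Over the 35 probe sets the median set difference was 0.022, against -0.0074 for all probe sets. Sets did not overlap over the 8 arrays at 11 of 35, 6 higher and 5 lower in set 2, where 35.0% of all probe sets did not (17.9% higher and 17.1% lower).

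**Figure D4:**
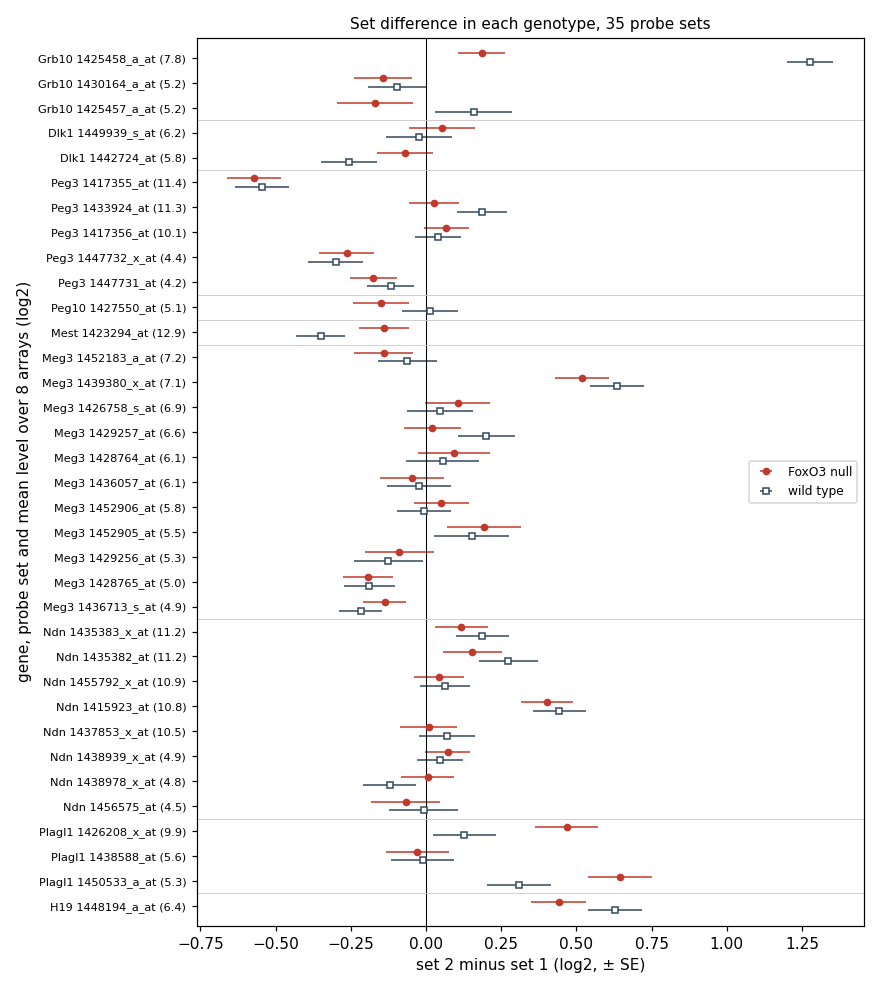
Log2 difference of set 2 minus set 1 in FoxO3 null (filled circles) and wild type (open squares) for each of the 35 probe sets, with bars of 1 SE and the mean level in brackets. Grb10 1425458_a_at shows 0.19 in FoxO3 null and 1.28 in wild type, while Peg3 1417355_at, Meg3 1439380_x_at, Ndn 1415923_at and H19 lie on the same side of 0 in both genotypes.

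A list of 70 other imprinted mouse genes had 61 measured, 37 of them above the median level. It was drawn up with earlier results of these data known, so its counts are a description. For genotype, 1 of 61 passed, against 1.12% of all genes by their brightest probe set (0.874% lower), and the median difference was 0.0036, against 0.0091 for all genes. That gene was Ampd3, AMP deaminase 3, which fell by 0.41 on the log2 scale in FoxO3 null (-0.41 ± 0.06, limma, adjusted p = 0.0104). The next were Zim1, a zinc finger gene 7.4 kb from Peg3, at 0.21 ± 0.07 (adjusted p = 0.219), and Mcts2, at 0.17 ± 0.06 (adjusted p = 0.248). Zim1 was below the median level, at a mean of 5.10, and may read little more than background. Ampd3 lost its call without array 1 of wild type set 2 (adjusted p = 0.0507).

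For set, 28 of the 61 passed, 15 higher and 13 lower in set 2, against 41.6% of all genes, 21.3% higher and 20.3% lower. Ampd3 rose by 1.16 ± 0.06 (adjusted p = 9.35e-07), Cdkn1c, the cell cycle inhibitor p57, by 0.81 ± 0.12 (adjusted p = 0.000527), and Sfmbt2, a polycomb protein, by 0.61 ± 0.09 (adjusted p = 0.000708). H13, a signal peptide peptidase, rose by 0.48 ± 0.07 (adjusted p = 0.000582). Copg2, a coat protein gene that overlaps the end of Mest, fell in set 2 (-0.85 ± 0.09, adjusted p = 5.98e-05), and Mest's own set difference was -0.25. Other neighbours of the 9 genes went in various directions. Ddc, dopa decarboxylase, 32.4 kb from Grb10, rose by 0.51 ± 0.09 in set 2 (adjusted p = 0.00187), with genotype differences of -0.31 in set 2 and 0.04 in set 1 that did not pass. A dimmer Ddc probe set did not pass for set, at 0.12 ± 0.07 (limma, adjusted p = 0.223). Sgce, epsilon-sarcoglycan, which lies 0.1 kb from Peg10 in the annotation, rose by 0.35 ± 0.05 (adjusted p = 0.000731), and Rian, a noncoding RNA 32.2 kb from Meg3, fell (-0.42 ± 0.09, adjusted p = 0.00531).

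**Figure D5:**
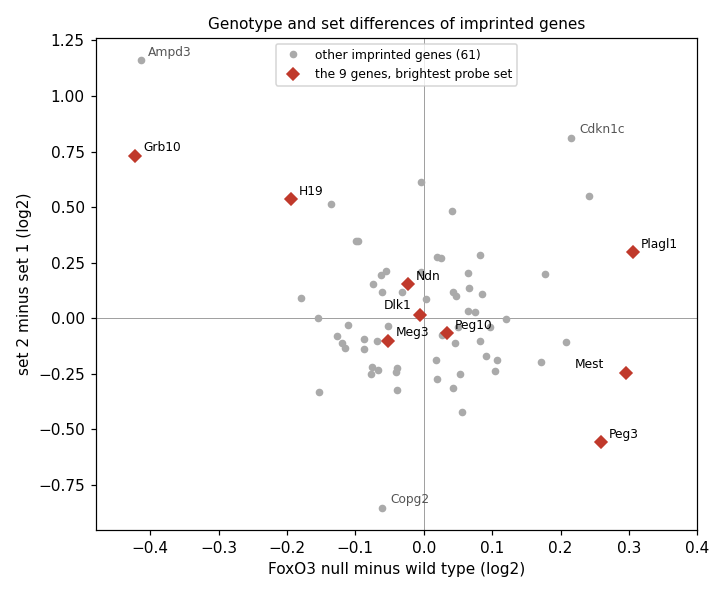
Log2 FoxO3 null minus wild type over both sets (x axis) against log2 set 2 minus set 1 (y axis) for the brightest probe set of the 9 genes (diamonds) and of 61 other imprinted genes (grey circles). Grb10 lies at -0.42 and 0.73 and Ampd3 at -0.41 and 1.16, while Dlk1, Meg3, Ndn and Peg10 lie near the centre.

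Of 16 genes that set, keep or erase imprints, 15 were measured. They too were listed with earlier results of these data known, so their counts are a description. None passed for genotype in limma, against 1.12% of all genes, with 5 of 15 at an unadjusted p under 0.05, against 14.5% of all genes. Uhrf1, which brings the maintenance methyltransferase to replicating DNA, had the lowest p of the 15, at 0.23 ± 0.06 (adjusted p = 0.162). Between sets, 2 were higher and 8 lower in set 2, against 21.3% of all genes higher and 20.3% lower. Those that fell included Dnmt1, the maintenance methyltransferase (-0.38 ± 0.06, adjusted p = 0.000486), Trim28, the corepressor that protects imprints in the embryo (-0.26 ± 0.05, adjusted p = 0.00255), and Ctcf, the insulator protein that binds the H19 control region (-0.28 ± 0.05, adjusted p = 0.00291). Smchd1, a chromatin protein (-0.41 ± 0.08, adjusted p = 0.00199), also fell, as did the methylcytosine oxidase gene Tet3 (-0.34 ± 0.05, adjusted p = 0.000711) and Dppa3 (-0.49 ± 0.07, adjusted p = 0.000522), both below the median level. The 2 that rose were the de novo methyltransferases Dnmt3a, by 0.26, and Dnmt3b, by 0.25, which were named after their values were seen. Neither methylation nor allelic origin was measured.

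The list of Grb10 relatives and partners was drawn up with earlier results of these data known, so its counts are a description. Of its 9 genes, 2 passed for genotype, both lower in FoxO3 null, against 1.12% of all genes (0.874% lower). These were the receptors that Grb10 binds: Igf1r, the IGF1 receptor (-0.42 ± 0.06, limma, adjusted p = 0.0106), and Insr, the insulin receptor (-0.35 ± 0.06, adjusted p = 0.0287). The Insr call was lost without any one of 7 of the 8 arrays, all but array 2 of wild type set 2, and the Igf1r call without array 1 of wild type set 2 (adjusted p = 0.0515). The replicate block (adjusted p = 0.0726) and averaging each group's 2 arrays (adjusted p = 0.17) also ended the Insr call, and averaging ended the Igf1r call (adjusted p = 0.138). Of the other 4 Igf1r probe sets none passed, but the next brightest, with means of 7.69 and 7.46, had differences of similar size, -0.33 ± 0.08 (adjusted p = 0.104) and -0.42 ± 0.09 (adjusted p = 0.0767). The other 2 Insr probe sets were dim, at -0.04 ± 0.07 and 0.03 ± 0.07. In set 2 against set 1, 4 of the 9 rose and none fell, against 21.3% of all genes higher and 20.3% lower. Those that rose included Grb14, a close relative of Grb10 that also inhibits the insulin receptor (0.73 ± 0.07, adjusted p = 4.72e-05), and Gigyf2, a Grb10-interacting protein (0.56 ± 0.06, adjusted p = 5.08e-05). Irs2, a substrate of the insulin receptor, rose by 0.49 ± 0.08 (adjusted p = 0.000838), and Igf1r by 0.19 ± 0.06 (adjusted p = 0.0221).

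Over the 8 arrays, the genes most like Grb10 1425458_a_at by Pearson's correlation were Spon1 (0.994), Spock2 (0.991), Mef2d (0.987), Kcnc4 (0.986) and Vxn (0.986). The 8 arrays share 2 sets and 2 genotypes, and these are the highest values among all genes searched, so they are a description. Spon1, an extracellular matrix protein of the nervous system, read 11.19 and 11.24 in FoxO3 null set 2, 12.11 and 12.09 in wild type set 2, 11.15 and 11.10 in FoxO3 null set 1, and 11.08 and 11.02 in wild type set 1. It was high in wild type set 2 alone, as Grb10 was. The genes most like Peg3 1417355_at were Tex261 (0.996), Kif11, a mitotic motor (0.983), and Fbxo5, an inhibitor of the anaphase-promoting complex (0.982). Those most like Plagl1 1426208_x_at were Epha3 (0.984), Hmcn1 (0.980) and Tmem260 (0.977). For Mest they were Gpr15 (0.983), Vcp (0.981) and Dhx15 (0.980), and for H19 Ky (0.989), Plekha2 (0.987) and En2 (0.987). The highest values were 0.993 for the brightest Ndn probe set (Ankub1, then Mixl1 and Rnf11), 0.947 for Peg10 (Gal3st2c, then Igsf5 and Tgs1), 0.939 for Dlk1 (Pex5l, then Hspa1b and Aoc3) and 0.931 for Meg3 (Gm11696, then Cd79a and Ptprf). Some of these genes were bright, such as Tgs1 (mean 10.75). Others, such as Gpr15 (4.69), Gal3st2c (4.81) and Ankub1 (5.67), may read little more than background. The Peg10 and Dlk1 probe sets themselves spanned only 0.29 and 0.34 over the 8 arrays.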

How the data were processed

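RNA of 8 mouse neurosphere cultures was hybridised to Affymetrix Mouse430_2 arrays, per the labels. The authors deposited log2 values, summarised per probe set by RMA per the submitters' processing notes; its version is not given in these sources, and RMA's quantile normalization can hide a shift shared by most genes. Array medians were 6.27 to 6.31, no columns were identical, and 64 control probe sets were left out. Array number sets the precision, with 2 arrays per set and genotype.

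All 45037 remaining probe sets were fitted with limma 3.58.1 (R 4.3.3), genotype with set as an additive term, and the within-set and interaction contrasts from 4 group means. P-values were two-sided and adjusted by Benjamini-Hochberg over all probe sets, with a threshold of 0.05. A listed gene stands by its brightest probe set. Of the probe sets, 34945 carry 1 symbol in the platform annotation, 932 several and 9160 none; coordinates and promoter sequences are RefSeq's on GRCm38.p6, whereas the platform's own build was not used. On simulated data of 45037 probe sets the genotype fit recovered 72 of 100 changes of 0.5 and 98 of 100 of 1, and the interaction 1 of 100 and 56 of 100.

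The 9 genes, the lists and the markers were chosen with earlier results of these data known, so counts over them are a description. Named genes are every probe set of the 9; of each list, the genes passing for genotype (the 2 with the smallest p where fewer than 2 pass) and up to 6 by smallest p for set; neighbours named beside a member were chosen after their values were seen; and the genes with the highest correlation to a member. Arrays with the same number did not deviate together (correlations of 0.0739 in set 1 and -0.0582 in set 2), so no pairing was used. Alternatives were a missing set term, a replicate block, renewed quantile normalization, median centring, a filter on dim probe sets, a variance trend, array means, the most variable probe set of a gene, and leaving out each array.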

Additional observations from a re-analysis of the deposited data

Results flagged for a closer look

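The genotype difference of Grb10 1425458_a_at in set 2 minus that in set 1 was -1.09 (log2), from -0.97 in set 2 and 0.12 in set 1: every FoxO3 null array lay below the wild type arrays in set 2 and above them in set 1. Grb10 was chosen on these values, so no p-value is given for it. The pattern rests on 1 of 3 probe sets, and some oligodendrocyte, astrocyte, neuron and sex-linked markers differed between the same groups, whose part was not tested.

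For 5 genes of the lists, FoxO3 null arrays lay wholly on one side of wild type in set 2 and on the other in set 1. The lists held 61 other imprinted genes, 15 imprint machinery genes and 9 Grb10 relatives and partners that were measured. The share of all genes with this pattern was not computed, so nothing is read from the count. The interaction did not pass for any of the 5, so a difference between sets is not shown. Pon3 differed by 0.35 between sets (0.20 in set 2, -0.15 in set 1, adjusted p = 0.586) and Kcnq1 by 0.38 (0.21 and -0.17, adjusted p = 0.458). Commd1 differed by 0.21 (0.096 and -0.11, adjusted p = 0.752). Trappc9 differed by -0.33 (-0.12 and 0.21, adjusted p = 0.464) and Zfp57 by -0.42 (-0.24 and 0.19, adjusted p = 0.617). Pon3, Kcnq1 and Zfp57 were below the median level of the arrays.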

How the results depend on the processing

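No result turned its direction under the alternatives run. Genotype calls among the 35 probe sets numbered 0, but 1 with dim probe sets left out (Mest) and 2 with a variance trend (Mest and Peg3), and in set 2 they numbered 1 (Grb10), but 2 (with Mest) and 3 (with Mest and Plagl1) under those alternatives. Set calls numbered 12, but 7 with each group's 2 arrays averaged. Other imprinted genes called for genotype numbered 1, but 0 with no set term or array means. Imprint machinery genes and Grb10 partners together numbered 2, but 0 with no set term, array means or the most variable probe set, 4 with a variance trend and 1 with the replicate block, which ended the Insr call. The causes were not tested. The replicate block changed no other count past 1.5 times, and it was run only for the genotype contrast over both sets. Leaving out 1 array at a time gave 0 to 1 interaction calls among the 35 (0 without any of 6 arrays), 10 to 12 set calls, 0 to 1 other imprinted genes for genotype (0 without array 1 of wild type set 2), 0 to 2 for machinery and partners (0 without that same array) and 19 to 29 other imprinted genes for set. With array means, no set term or a block, no contrast within a set was run. Dim probe sets, 19 of the 35, limit what their values can show, and with 2 arrays per group the interaction had little power for changes of 0.5.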
